A study of Mus musculus with 37 samples.

Results

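The genes described here encode the vomeronasal receptors of the Vmn1r and Vmn2r families and the trace amine-associated receptors, Taar. They were taken as every gene with a probe set that lists a single symbol beginning with Vmn1r, Vmn2r or Taar, and the probe set with the highest mean signal stood for a gene. This gave 180 genes of the 19936 genes measured: 118 Vmn1r, 49 Vmn2r and 13 Taar genes, represented on the arrays by 188 probe sets. By biotype 177 of them are protein coding and 3 are pseudogenes, and 4 carry a pseudogene mark in their symbol. The array does not resolve the whole family: the RefSeq gene table (GRCm38.p6) holds 661 such genes, pseudogenes included, and 68 further probe sets list several symbols with at least 1 of these receptors among them and were kept out. The genes were chosen by a measured value, their higher signal in mice with the duplication when the whole brain was compared with wild type. That contrast is therefore given as a description and supports nothing. The differences between the brain regions of wild-type mice, and their repeat in df/+ mice, were not used in the choice. The +/+ and dp/+ samples both entered that contrast, so the +/+ differences and their repeat in dp/+ mice are not independent of the choice.

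RNA was taken from 4 regions (bulb, cortex, brain stem and cerebellum) of 8 male F1 hybrids of C57BL/6N and 129Sv mice. The 2 df/+ mice carry 1 copy of a chromosome 7 interval that corresponds to human 16p11.2, the 3 +/+ mice carry 2 copies and the 3 dp/+ mice carry 3 copies. Both rearrangements are engineered and heterozygous, and the sources used here give no age. There were 31 region samples on 37 arrays, since 6 samples had 2 arrays, and the cortex of dp/+ mouse 3 was not analysed here. The 30 measured genes of the interval follow the labels: their mean difference from the +/+ mean of the region was -0.67 to -0.48 log2 units over the 8 df/+ samples and 0.25 to 0.37 over the 11 dp/+ samples. Omp, the olfactory marker protein of sensory axons, was 4.25 ± 0.10 (SE) log2 units higher in the +/+ bulb than in the other regions. Values are RMA log2 signals of bulk tissue, in which fewer cells of a type and less RNA per cell cannot be told apart, and a signal of 1 gene cannot be set against that of another.

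Vomeronasal receptors are G protein-coupled receptors of the sensory neurons of the vomeronasal organ, which detect pheromones and related cues. Neurons of the apical layer make V1 receptors (Vmn1r) with the G protein subunit Gnai2, and basal neurons make V2 receptors (Vmn2r) with Gnao1; both layers use the channel Trpc2, and their axons end in the accessory olfactory bulb, which lies at the back of the main bulb. Each neuron makes one or very few receptors, except that members of the Vmn2r1 to Vmn2r7 subfamily are made broadly by basal neurons beside another V2 receptor. Taar receptors detect volatile amines in a subset of neurons of the main olfactory epithelium, apart from Taar1, a receptor for trace amines that is also known from brain and peripheral organs. The cell bodies of all these sensory neurons lie in the nose, outside the regions sampled.

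The pair of V1 receptor genes with the clearest bulb signal, Vmn1r206 and Vmn1r208, lie in one cluster of V1 receptor genes on chromosome 13, and their start regions are shown because both genes were high in the same region. The windows hold 250 bases before and 50 bases after the annotated start, on the minus strand of GRCm38.p6, from RefSeq, at chr13:22620986-22621285 for Vmn1r206 and chr13:22773276-22773575 for Vmn1r208. Capitals mark the bases that are identical in a global alignment of both windows.
Vmn1r206: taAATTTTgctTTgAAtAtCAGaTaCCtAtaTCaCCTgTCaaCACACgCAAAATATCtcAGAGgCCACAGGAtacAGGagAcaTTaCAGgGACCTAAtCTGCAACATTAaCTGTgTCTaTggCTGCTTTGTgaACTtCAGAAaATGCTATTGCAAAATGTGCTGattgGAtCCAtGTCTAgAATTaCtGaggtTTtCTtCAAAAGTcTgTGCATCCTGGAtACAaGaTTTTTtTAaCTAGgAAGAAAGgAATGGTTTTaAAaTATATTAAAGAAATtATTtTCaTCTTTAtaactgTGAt
Vmn1r208: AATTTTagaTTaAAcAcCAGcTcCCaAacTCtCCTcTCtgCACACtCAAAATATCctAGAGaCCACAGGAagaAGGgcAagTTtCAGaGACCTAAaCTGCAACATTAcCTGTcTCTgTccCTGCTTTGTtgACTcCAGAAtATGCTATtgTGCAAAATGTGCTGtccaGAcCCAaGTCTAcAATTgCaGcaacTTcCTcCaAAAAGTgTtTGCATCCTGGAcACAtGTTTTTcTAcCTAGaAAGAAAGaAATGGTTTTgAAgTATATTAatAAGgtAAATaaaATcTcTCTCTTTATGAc

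The 2 windows shared 224 of 300 bases, or 74.7%, against a median of 61.7% over the 300 pairs of Vmn1r windows on chromosome 13, of which 24 pairs were more alike. The window most like both was that of Vmn1r189, at 79.7% identity to Vmn1r206 and 77.0% to Vmn1r208. More windows were closer to each gene than the 2 shown were to each other. For Vmn1r206 they included Vmn1r217 (75.7%), Vmn1r200, Vmn1r220 and Vmn1r219, and for Vmn1r208 Vmn1r205 (76.3%), Vmn1r203 and Vmn1r220. Of all these genes only Vmn1r189 passed an adjusted p of 0.05 in the +/+ bulb (limma). The others stood at 0.03 to 0.18 log2 units there. A link between window likeness and bulb signal was not tested. Windows were listed for 157 of the 180 genes and were poor in G and C, with a median GC content of 36% against 52.67% over all genes. Searched on both strands, the letters TATAAA were in 36.3% of the receptor windows and in 13.6% of all windows, TAATTA in 10.8% and 5.29%, and CCCNNGGG in 2.55% and 13.7%. Each motif was counted on its own, whatever it overlapped. Of the windows shown, that of Vmn1r206 held TATAAA, that of Vmn1r208 did not, and neither held TAATTA or CCCNNGGG. Of the olfactory receptor windows 41% held TATAAA, 18.6% TAATTA and 3.06% CCCNNGGG.

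In +/+ mice most of the receptor genes did not pass a test for a difference between the 4 regions. The F test, fitted with limma over all genes with the mouse as a block, called 9 of the 180 receptor genes (5%) at an adjusted p of 0.05, where it called 58% of all genes. In the bulb against the mean of the other 3 regions, 7 receptor genes were higher, where 15.3% of all genes were, and 2 were lower, where 21.2% of all genes were. Without +/+ mouse 2, 5 receptor genes were called between regions and 5 in the bulb contrast, beside 8678 and 5182 of all genes. The median difference over the 180 genes was 0.031 log2 units, beside 0.007 over all genes. The signals were dim: the median receptor gene lay at 4.64 log2 units, at percentile 4.17 of all genes, with a range of 3.86 to 6.81. The spread between +/+ mice was small, with a median SD of 0.088 log2 units for receptor genes and 0.129 for all genes. No detection call above background was used, so a dim gene is not shown to be expressed or silent.

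Vmn1r206 had the largest bulb difference of the single-symbol V1 receptor genes called in +/+ mice. In the +/+ bulbs its signal was 5.31, 5.26 and 5.67 log2 units in mice 1, 2 and 3. Cortex samples read 4.68, 4.64 and 4.68, brain stem samples 4.57, 4.50 and 4.75, and it was 4.61, 4.71 and 4.44 in the cerebellum. The bulb samples lay above all samples of the other regions, and those did not separate from one another. The bulb was higher by 0.80 ± 0.09 (SE) log2 units, or 174% of the mean of the other regions (adjusted p = 2.48e-06, n = 3 mice, limma across all genes).

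The difference was repeated in mice that had no part in that test, though the dp/+ samples entered the contrast that chose the genes. The df/+ bulbs read 5.93 and 6.07 log2 units and the dp/+ bulbs 5.43, 5.89 and 5.30, while no sample of another region in any genotype exceeded 4.92. Vmn1r206 was higher in the bulb by 1.30 ± 0.08 (SE) log2 units in df/+ mice (adjusted p = 5.26e-06) and by 0.87 ± 0.10 in dp/+ mice (adjusted p = 4.09e-05). The df/+ bulbs were also the highest of the 8 bulbs, but the difference between df/+ and +/+ bulbs, 0.59 ± 0.14 (SE), did not pass the threshold (adjusted p = 0.0572). The measured genes next to it on one side, Vmn1r205 and Vmn1r203, named after their values were seen, stood at 0.11 (adjusted p = 0.185) and 0.09 log2 units (adjusted p = 0.367) in the +/+ bulb, neither past the threshold. Some probe sets with several V1 receptor symbols also rose in the +/+ bulb. A set that lists Vmn1r206 stood at 0.81 (adjusted p = 3.31e-05 over all probe sets). A set without Vmn1r206 stood at 0.69 (adjusted p = 0.000126).

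Vmn1r208, a further V1 receptor of the cluster, read 6.76, 6.89 and 6.68 log2 units in the +/+ bulbs. Cortex samples read 6.05, 6.16 and 6.10, brain stem samples 6.32, 6.19 and 6.18, and it was 6.32, 6.29 and 6.21 in the cerebellum. Again no sample of another +/+ region reached the bulb samples. The bulb was higher by 0.58 ± 0.07 (SE) log2 units (adjusted p = 4.78e-06), by 0.70 ± 0.08 in df/+ mice (adjusted p = 0.000147) and by 0.99 ± 0.13 in dp/+ mice (adjusted p = 9.51e-05). Vmn1r208 was also called in the contrast that chose the genes, at 0.26 (adjusted p = 0.0349). A second, dimmer probe set of Vmn1r208 gave 0.18 log2 units in the +/+ bulb (adjusted p = 0.245 over all probe sets), so the probe sets of this gene disagree.

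Vmn2r1 was the one gene of the broadly expressed Vmn2r1 to Vmn2r7 subfamily that was measured with a single symbol. It read 6.62, 6.89 and 6.47 log2 units in the +/+ bulbs and 5.85 to 6.31 over the 9 other +/+ samples, with no overlap. The bulb was higher by 0.57 ± 0.07 (SE) log2 units (adjusted p = 1.08e-05), by 0.62 ± 0.11 in df/+ mice (adjusted p = 0.00338) and by 0.81 ± 0.08 in dp/+ mice (adjusted p = 4.85e-06). In df/+ mice the bulbs read 6.40 and 6.78 and in dp/+ mice 6.78, 7.22 and 6.91. Its measured neighbours Slc33a1, an acetyl-CoA transporter, and Gmps, an enzyme of GMP synthesis, stood at -0.43 (adjusted p = 0.000448) and -0.19 log2 units (adjusted p = 0.05) in the +/+ bulb. Both were named after their values were seen. A several-symbol probe set that lists Vmn2r1 to Vmn2r5 and Vmn2r-ps11 did not rise in the +/+ bulb. It stood at -0.07 log2 units (adjusted p = 0.627 over all probe sets). A set that lists Vmn2r2, Vmn2r5 and Vmn2r-ps11 was lower, at -0.26 (adjusted p = 0.0414), so the probe sets of this subfamily disagree.

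**Figure D1:**
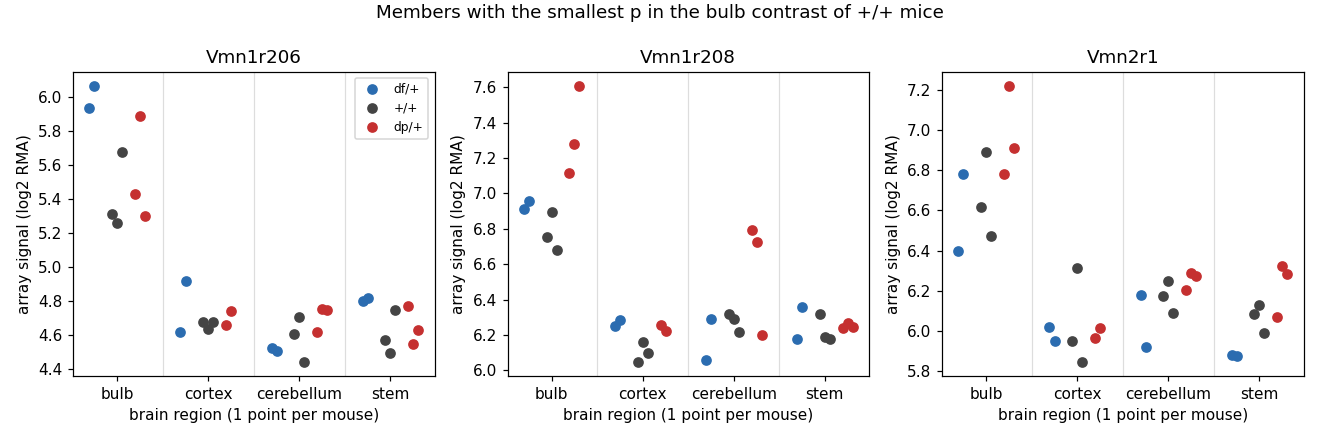
Array signal (log2 RMA, y axis) of Vmn1r206, Vmn1r208 and Vmn2r1 in each region sample, grouped by brain region (x axis) and coloured by genotype, with 1 point per mouse. The 8 bulb samples of Vmn1r206 and of Vmn2r1 lie above every other sample of the gene, and for Vmn1r208 the cerebellum samples of dp/+ mice 1 and 2 reach the level of the +/+ bulbs.

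Differences between regions were smaller for the other called genes. Vmn2r14 was higher in the +/+ bulb by 0.29 ± 0.08 (SE) log2 units (adjusted p = 0.0065), Vmn1r189 by 0.28 ± 0.08 (adjusted p = 0.0132), Vmn1r198 by 0.23 ± 0.07 (adjusted p = 0.0187) and Vmn1r199 by 0.21 ± 0.08 (adjusted p = 0.0426). None of these 4 passed in df/+ or dp/+ mice, where the values were 0.18, 0.14, 0.10 and 0.04 in df/+ mice and 0.05, 0.16, 0.14 and 0.04 in dp/+ mice, all of the same sign. All 5 V1 receptor genes that were higher in the +/+ bulb lie on chromosome 13, which holds 29 of the 180 genes. Vmn2r93 was lower in the +/+ bulb by -0.27 ± 0.09 (adjusted p = 0.029), but the bulb difference was 0.05 in df/+ mice and 0.53 in dp/+ mice, neither past the threshold. Vmn2r9 passed only the F test (adjusted p = 0.0418), with its highest mean in the cerebellum, 6.07 ± 0.20 (SD, n = 3), and its lowest in the cortex, 5.61 ± 0.32.

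Vmn2r-ps11, a transcribed pseudogene beside Vmn2r7 in the chromosome 3 cluster, had the largest cerebellar difference of the 180 genes in +/+ mice. Its +/+ cerebellum samples read 5.61, 5.46 and 5.51 log2 units, and the 9 other +/+ samples lay between 4.84 and 5.07. The +/+ cerebellum was higher by 0.57 ± 0.07 (SE) log2 units, or 148% of the mean of the other regions (adjusted p = 4.87e-06); 2 receptor genes were higher in this contrast, where 20.8% of all genes were. The other was Vmn1r54, named after its values were seen, at 0.19 ± 0.07 (adjusted p = 0.0317), with 0.06 in df/+ mice (adjusted p = 0.683) and 0.07 in dp/+ mice (adjusted p = 0.484). In df/+ mice the cerebellum was higher by 0.54 ± 0.07 (adjusted p = 0.000393) and in dp/+ mice by 0.68 ± 0.13 (adjusted p = 0.00123). The bulb value of Vmn2r-ps11 was -0.29 in +/+ mice (adjusted p = 0.00362), -0.15 in df/+ and -0.12 in dp/+ mice, the latter 2 not past the threshold. That value sets the bulb against a mean that includes the high cerebellum. The +/+ bulbs read 4.87, 4.94 and 4.84, the cortex samples 5.03, 5.07 and 4.90, and the brain stem samples 5.02, 4.91 and 5.03. Vmn2r7 was not among the genes measured with a single symbol. Hybridisation of its transcript to the probe set of the pseudogene was not tested.

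The bulb difference was then compared over all 180 genes in mice that share no sample. The +/+ and df/+ values had a correlation of 0.64 across genes, which fell to 0.23 without Vmn1r206, Vmn1r208 and Vmn2r1. The +/+ and dp/+ values had a correlation of 0.42, which became -0.02 without the 3 genes. Genes are not independent replicates, and these 3 genes carry most of the relation. In df/+ mice 8 receptor genes were higher in the bulb, where 11.7% of all genes were, and in dp/+ mice 18 were, where 14.7% of all genes were, with none lower in either. The dp/+ count includes the bulb sample of dp/+ mouse 3, in which the receptor genes read high together, as described below. The dp/+ samples also entered the contrast that chose the genes.

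The 13 Taar genes, which lie together on chromosome 10, showed no called difference between +/+ regions. Taar4 had the highest bulb difference, 0.16 ± 0.07 (SE) log2 units (adjusted p = 0.1), with 6.09 ± 0.12 (SD, n = 3) in the bulb and 5.88 ± 0.10 in the cortex. Taar5, a receptor for trimethylamine, had 0.13 (adjusted p = 0.232), Taar3 0.11 (adjusted p = 0.355), Taar7d 0.11 (adjusted p = 0.316), Taar7e 0.08 (adjusted p = 0.425) and Taar2 0.06 (adjusted p = 0.537). Taar1, the member known from brain, read 4.71 ± 0.11 in the +/+ bulb, 4.63 ± 0.12 in the brain stem, 4.62 ± 0.10 in the cortex and 4.76 ± 0.06 in the cerebellum, all within the spread of the mice (adjusted p = 0.47 in the F test). The bulb differences of Taar6, Taar7b, Taar7f, Taar8b, Taar8c and Taar9 lay between -0.02 and 0.04. Of the enzymes that make or degrade trace amines, 8 of 9 were measured, and 1 was higher and 3 were lower in the +/+ bulb: Inmt, an indolethylamine methyltransferase, at 0.50, and Maob, Ddc and Maoa, the monoamine oxidases and the aromatic amino acid decarboxylase, at -0.69, -0.66 and -0.58.

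Genes that accompany these receptors in sensory neurons were examined in the same bulbs. Of 10 listed genes of vomeronasal neurons 9 were measured; Trpc2, the defining channel, was not among the genes with a single symbol. In the +/+ bulb 3 were higher, Omp, Ano2 (0.62) and Ano1 (0.55), of which Ano1 and Ano2 are calcium-activated chloride channels, and 3 were lower, Calr4 (-0.39), Gnao1 (-0.28) and Nsg1 (-0.27). Gnao1, Gnai2, Ano2 and Nsg1 are also made by brain neurons. None of the 9 MHC class Ib genes of the H2-M family that are made with V2 receptors was called in the bulb, nor was any of the 4 measured formyl peptide receptors of the vomeronasal organ or the 4 measured vomeronasal ligands among 38 listed.

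Markers of nasal and respiratory epithelium were also present in the bulb samples: 8 of 12 were higher in the +/+ bulb, led by Scgb1c1 (2.44), Bpifb4 (1.08), Cyp2g1 (2.50) and Cbr2 (1.09). Their mean level over the 12 genes was 6.53 to 6.88 log2 units in the +/+ bulbs, 6.60 to 6.68 in the dp/+ bulbs and 5.89 to 6.10 in the df/+ bulbs, against 5.82 to 6.07 in the other +/+ samples. In the df/+ bulbs 6 of these 12 markers were lower than in the +/+ bulbs, with Cyp2g1 at -2.17 ± 0.26 (SE), Scgb1c1 at -1.92 ± 0.18 and Gpx6 at -1.65 ± 0.24. The bulb differences given above for df/+ and dp/+ mice stand beside these marker levels. The part of nasal tissue in the bulb values of the receptor genes was not tested. Omp was at 10.31 and 11.10 in the df/+ bulbs and 10.75 to 11.24 in the +/+ bulbs.

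The contrast that chose the genes was the one between dp/+ and +/+ mice across the brain, with 1 value per mouse. In it 13 receptor genes (7.22%) were higher, where 1.48% of all genes were, and none was lower, where 0.381% of all genes were; at an unadjusted p under 0.05 there were 64, beside 4723 of all 19936 genes. Leaving out each mouse in turn gave 2 to 19 called receptor genes, with the low of 2 on removal of +/+ mouse 2 or dp/+ mouse 2. The count was 3 on removal of +/+ mouse 3, 6 for dp/+ mouse 1 and 7 for dp/+ mouse 3. Calls over all genes went from 371 to 11, 32, 59, 120 and 139 on removal of these mice, in the order named. The median difference over the 180 genes was 0.085 log2 units and 169 were above 0, beside -0.007 and 47.8% over all genes. By family the medians were 0.084 for Vmn1r with 10 called, 0.072 for Vmn2r with 3 called and 0.123 for Taar with none called, though all 13 Taar differences were above 0. For 88 genes, or 48.9%, all 3 dp/+ mice lay above all 3 +/+ mice, against 17% of all genes, which is read beside the 1.48% called. The 49 receptor genes on chromosome 7, the chromosome of the interval, had a median of 0.106, beside 0.105 for the 29 on chromosome 17, 0.123 for the 15 on chromosome 10, 0.067 for the 29 on chromosome 13 and 0.057 for the 46 on chromosome 6.

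The general shift of dim probe sets was measured on genes outside the sensory receptor families. Ordered by mean signal, these had a median dp/+ difference of 0.056 in the lowest decile of level, 0.081, 0.091 and 0.068 in the next 3 deciles, and between -0.018 and -0.077 in the 6 upper ones. The receptor genes lay above that course, more so at higher level: their median was 0.068 for the 150 in the lowest decile, 0.151 for 19, 0.254 for 9 and 0.282 for the last 2. At matched level, the 830 other genes between the quartiles of the receptor genes had a median of 0.060 with 700 above 0, and 34.9% of them had all dp/+ mice above all +/+ mice. Other families with dim probe sets stood at 0.160 for 1027 olfactory receptors, of which 172 were called higher, 0.133 for 34 bitter taste receptors with 2 called, 0.149 for 44 hair keratin-associated proteins with 7 called, and 0.097 for 40 beta-defensins with 2 called higher and 1 lower. The vomeronasal and trace amine receptors were therefore not the family with the highest median.

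**Figure D2:**
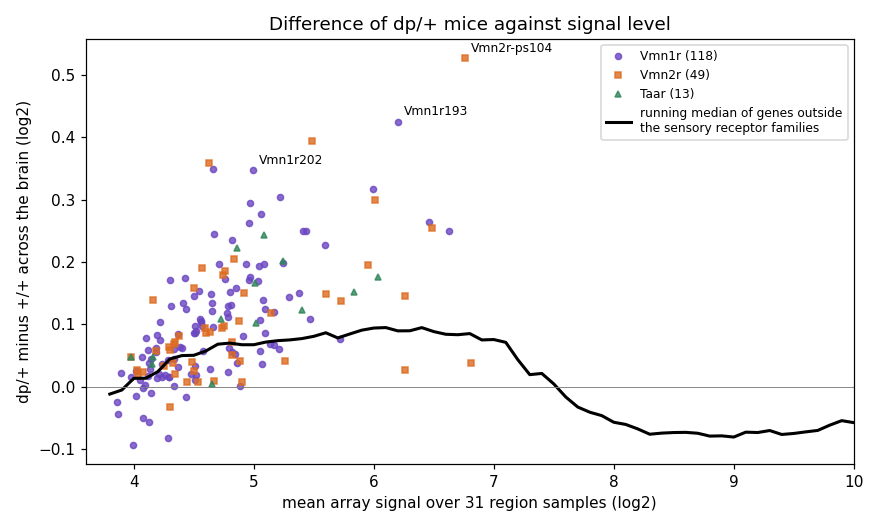
Difference between dp/+ and +/+ mice across the brain (log2, y axis) against the mean array signal over 31 region samples (log2, x axis), with 1 point for each of 118 Vmn1r, 49 Vmn2r and 13 Taar genes and a black line for the running median of genes outside the sensory receptor families. The line stands at 0.04 at a signal of 4.3, 0.09 at 6.1 and -0.05 at 7.9, and Vmn2r-ps104, Vmn1r193 and Vmn1r202 lie well above it.

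When the running median of those other genes was taken from each sample before the fit, 3 receptor genes (1.67%) remained called higher, where 0.226% of all genes were. The median of the 180 genes fell from 0.085 to 0.038, and 131 were above 0. All 3 lie on chromosome 13: Vmn2r-ps104, a V2 receptor pseudogene, at 0.45 ± 0.05 (SE) log2 units (adjusted p = 0.0181), and the V1 receptors Vmn1r193 at 0.34 ± 0.05 (adjusted p = 0.0256) and Vmn1r202 at 0.28 ± 0.05 (adjusted p = 0.0444). Vmn2r93 at 0.31 and Vmn2r83 at 0.30 followed without passing (adjusted p = 0.15 and 0.0557). The lowest values were those of Vmn1r199 at -0.12, Vmn1r170 at -0.10 and Vmn2r94 at -0.07, none of them called. Without level removal, a several-symbol probe set that lists Vmn2r-ps104 stood at 0.65 (adjusted p = 0.00382, limma over all probe sets). Sets that list both Vmn1r193 and Vmn1r202 stood at 0.55 (adjusted p = 0.003) and 0.58 (adjusted p = 0.00499). Hybridisation of other receptor transcripts to the probe sets of the 3 called genes was not tested.

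Vmn2r-ps104 shows how the difference is spread over regions and mice. Its dp/+ bulbs read 7.11, 7.24 and 7.75 log2 units in mice 1, 2 and 3, against 6.59, 6.48 and 6.58 in +/+ bulbs and 6.96 and 6.85 in df/+ bulbs. Its dp/+ cerebella read 7.77, 7.41 and 6.69, against 6.56, 6.46 and 6.65 in +/+ mice and 6.64 and 6.81 in df/+ mice. In the cortex the dp/+ samples read 6.68 and 6.61 against 6.69, 6.26 and 6.57, and in the brain stem 6.69, 6.96 and 6.68 against 6.44, 6.37 and 6.65. The bulbs of all dp/+ mice and the cerebella of dp/+ mice 1 and 2 were high, while the cortex and the cerebellum of mouse 3 lay in or next to the +/+ range. Across the brain the difference was 0.53 ± 0.06 (SE) log2 units, or 144% of the +/+ signal (adjusted p = 0.00796), and in df/+ mice it was 0.17 ± 0.07 (adjusted p = 0.684).

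Vmn1r193, a V1 receptor, was high in the same samples. Its dp/+ bulbs read 6.67, 6.65 and 7.21 log2 units against 6.18, 6.15 and 6.13 in +/+ mice, and its dp/+ cerebella 7.15, 6.80 and 6.25 against 6.19, 6.00 and 6.08. Its cortex read 6.20 and 6.11 against 5.91, 6.07 and 5.99, and its brain stem 5.94, 6.13 and 6.01 against 5.97, 6.02 and 5.71. The dp/+ bulbs and the cerebella of dp/+ mice 1 and 2 stood clear of the +/+ samples, and the brain stems overlapped. The difference across the brain was 0.42 ± 0.05 (adjusted p = 0.00796), and 0.05 in df/+ mice (adjusted p = 0.935).

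Vmn1r202 read 5.15, 5.22 and 5.77 log2 units in the dp/+ bulbs and 5.59, 5.40 and 4.95 in the dp/+ cerebella. In the dp/+ cortex it read 4.98 and 5.14 and in the dp/+ brain stem 4.86, 5.19 and 4.95. The +/+ samples of all regions lay between 4.75 and 4.96, and the df/+ samples reached 5.01. Its difference across the brain was 0.35 ± 0.05 (adjusted p = 0.0128) and 0.07 in df/+ mice (adjusted p = 0.883). Of the next genes by p, Vmn2r83 stood at 0.36 ± 0.06 (adjusted p = 0.0169), Vmn1r71 at 0.30 ± 0.05 (adjusted p = 0.0226), Vmn1r233 at 0.32 ± 0.06 (adjusted p = 0.0226), Vmn1r80 at 0.28 ± 0.05 (adjusted p = 0.0232) and Vmn1r229 at 0.29 ± 0.05 (adjusted p = 0.0246). Vmn2r83 has a second probe set at 0.13 (adjusted p = 0.205 over all probe sets).

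**Figure D3:**
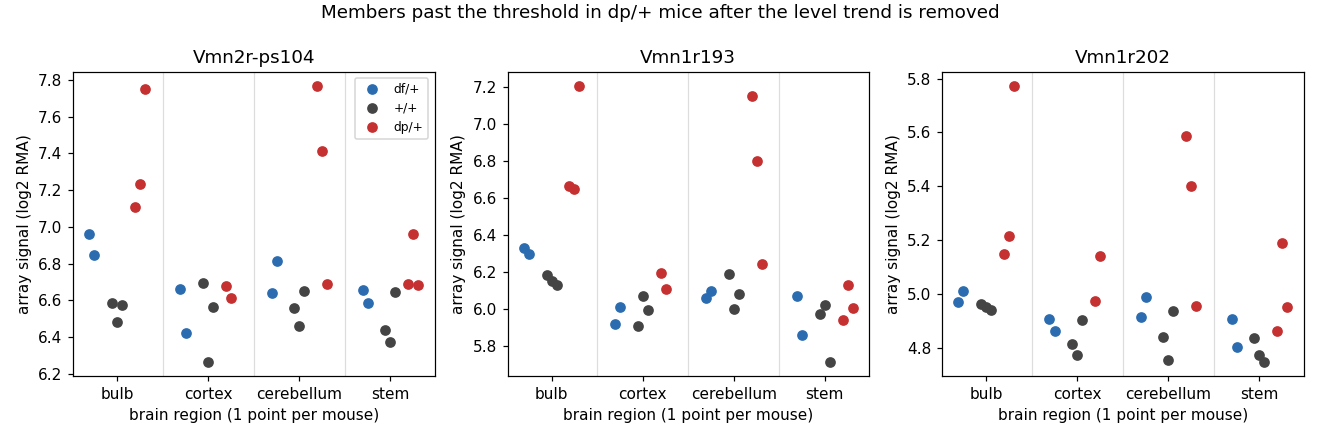
Array signal (log2 RMA, y axis) of Vmn2r-ps104, Vmn1r193 and Vmn1r202 in each region sample, grouped by brain region (x axis) and coloured by genotype, with 1 point per mouse. The highest points of each gene are the bulb of dp/+ mouse 3 and the cerebellum of dp/+ mouse 1, and the brain stem of dp/+ mouse 2 lies above the other genotypes of that region for all 3 genes.

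The receptor genes moved together in a few region samples. The median deviation of the 180 genes from the +/+ mean of the region was 0.25 log2 units in the bulb of dp/+ mouse 3, 0.23 in the cerebellum of dp/+ mouse 1 and 0.13 in the cerebellum of dp/+ mouse 2. In the other 28 region samples it lay between -0.06 and 0.07. The level course of other genes stood at 0.11, 0.14 and 0.06 in these 3 samples, which left 0.16, 0.11 and 0.07 beyond it. The cerebellum of dp/+ mouse 1 was hybridised on 2 arrays, and both were high, at 0.18 and 0.28. The quartiles of all genes moved with these samples: the lower quartile was 6.39 in the bulb of dp/+ mouse 3 against 6.21 to 6.33 in +/+ bulbs, and 6.46 in the cerebellum of dp/+ mouse 1 against 6.21 to 6.31 in +/+ cerebella. The cerebellum of dp/+ mouse 3 had a lower quartile of 6.37 with a receptor median of 0.02, and the part of these array-wide differences in the receptor values was not tested.

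**Figure D4:**
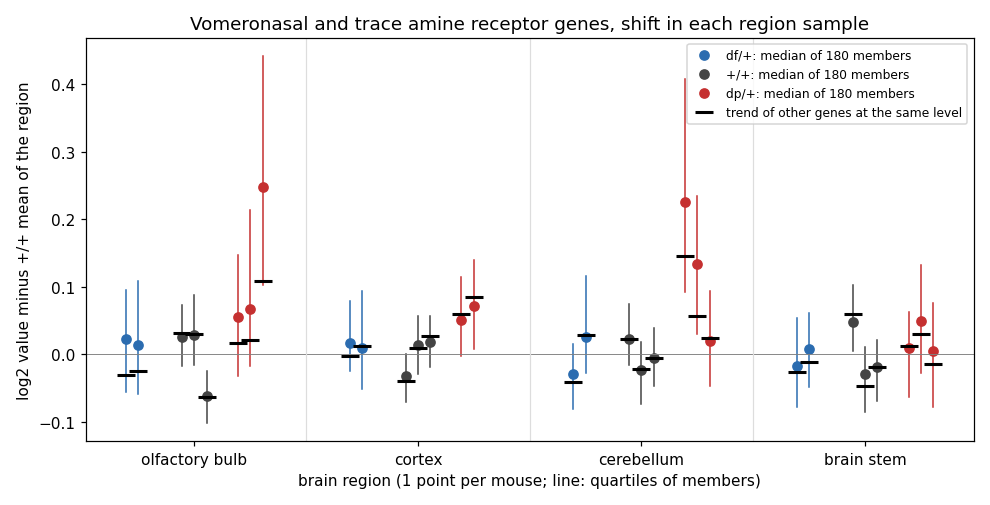
Median deviation of the 180 receptor genes from the +/+ mean of the region (log2, y axis; points, with lines from the lower to the upper quartile) in each region sample, by brain region (x axis), 1 point per mouse; black bars give the course of other genes at the same level. The bulb of dp/+ mouse 3 at 0.25 and the cerebella of dp/+ mice 1 and 2 at 0.23 and 0.13 stand above the rest and above their bars.

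The calls across the brain changed when single region samples were left out. Without the bulb of dp/+ mouse 3 the number of receptor genes called fell from 13 to 0, and without the cerebellum of dp/+ mouse 1 it also fell to 0; without the cerebellum of dp/+ mouse 2 it was 8, and without all 3 it was 0. Calls over all genes went from 371 to 4, 19, 113 and 0 in the same fits, so the loss is not one of the receptor genes alone. The 3 region samples were singled out after their values were seen. With all samples of dp/+ mouse 3 left out, 7 receptor genes and 139 of all genes were still called across the brain. With all samples of dp/+ mouse 1 left out, 6 and 120 were. Within regions, with the mouse as a random block, 15 receptor genes were higher in the dp/+ bulb, where 1.21% of all genes were, and 13 in the dp/+ cerebellum, where 2.29% were. None was called in the cortex (0% of all genes) or the brain stem (0.015% of all genes), at 5 and 2 receptor genes with an unadjusted p under 0.05, beside 3141 and 709 of all genes. In all, 21 genes were called in the bulb or the cerebellum and 7 in both, and without the 3 samples 5 were called in any region. Over all genes 1483 were called in at least 1 region, and 222 without the 3 samples.

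The calls left once the level course was removed were counted in the bulb and the cerebellum, which is no test between the regions. Over all genes, calls higher went from 241 to 357 in the bulb and from 456 to 171 in the cerebellum. The median over the 180 genes after removal was 0.089 log2 units in the bulb and 0.064 in the cerebellum. A difference between regions was called for no receptor gene after removal either. In the bulb 13 of the 15 genes stayed called, where 1.79% of all genes were, led by Vmn1r80 at 0.58 ± 0.10 (SE) log2 units before removal (adjusted p = 0.0062) and 0.52 after it, Vmn1r229 at 0.52 and 0.45, Vmn1r233 at 0.57 and 0.52, and Vmn1r208 at 0.56 and 0.53. Among the Taar genes Taar9 was called in the bulb, at 0.34 ± 0.08 (adjusted p = 0.0334). In the cerebellum 1 of the 13 stayed called, where 0.858% of all genes were: Vmn1r194, at 0.47 ± 0.10 before removal and 0.34 after it (adjusted p = 0.0383). Vmn2r14 stood at 0.54 before and 0.39 after removal (adjusted p = 0.0931). The difference between regions itself was called for no receptor gene, where 0.211% of all genes were, with the smallest p at Vmn1r80 (adjusted p = 0.117), Vmn2r93 (adjusted p = 0.181) and Vmn1r233 (adjusted p = 0.199); 24 of the 180 had an unadjusted p under 0.05, beside 2973 of all 19936 genes.

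The MHC class Ib genes, formyl peptide receptors and ligands were dim as well, with list means of 4.72 to 5.75 log2 units, while the vomeronasal neuron genes lay at 8.46 to 9.14. None of the 9 MHC class Ib genes was called across the brain in dp/+ mice, with a median of 0.108 and all 9 above 0, led by H2-M10.2 at 0.28 (adjusted p = 0.069), which was called in the cerebellum at 0.59 (adjusted p = 0.0122). The 4 formyl peptide receptors had a median of 0.086 and the 4 ligands one of 0.099, with none called across the brain. The 9 genes of vomeronasal neurons had a median of -0.035, and the 12 nasal markers one of 0.016, with none called in either list. Omp, Cnga2 and Stoml3 of olfactory sensory neurons differed by 0.07, -0.02 and -0.12 across the brain, none called. Within the dp/+ bulb the 10 listed genes of these neurons had a median of -0.18, with 1 above 0. In the df/+ bulb the median was -0.22, with 3 above 0. Gng13 was called lower in both, where 211 and 51 of all 19936 genes were.

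In df/+ mice no receptor gene was called across the brain, where 0.115% of all genes were, and 3 had an unadjusted p under 0.05, beside 1346 of all genes. This contrast shares its +/+ mice with that of dp/+ mice. The median difference was 0.009 log2 units, with 104 of 180 genes above 0, beside -0.013 over all genes; after removal of the level course it was 0.018. The smallest p values were those of Vmn1r206 at 0.21 ± 0.07 (SE) (adjusted p = 0.566), Vmn2r-ps104 at 0.17 ± 0.07 and Taar7e at 0.13 ± 0.06 (adjusted p = 0.721). Within regions none was called in the bulb (0.291% of all genes), the cortex (0.1%), the cerebellum (0.0702%) or the brain stem (0.211%), with 2, 0, 2 and 0 genes at an unadjusted p under 0.05. For the 13 genes called in dp/+ mice the df/+ values were all above 0 and between 0.006 and 0.17.

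The Taar genes side by side were 0.24 for Taar7b, 0.22 for Taar9, 0.20 for Taar7d, 0.18 for Taar4, 0.17 for Taar7e, 0.15 for Taar5, 0.12 for Taar6, 0.11 for Taar1 and 0.10 for Taar3 in dp/+ mice, with adjusted p from 0.0582 for Taar9 upward. Taar2, Taar8c, Taar8b and Taar7f lay at 0.05 or below. In df/+ mice the same genes lay between -0.03 and 0.13. After removal of the level course the dp/+ values of the 13 genes had a median of 0.049, and 12 were above 0.

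Probe sets that list several symbols of the family were plotted by sample beside the single-symbol genes. Their median deviation was 1.28 log2 units in the bulb of dp/+ mouse 3, 0.97 in the cerebellum of dp/+ mouse 1, 0.71 and 0.50 in the bulbs of dp/+ mice 2 and 1, and 0.70 in the cerebellum of dp/+ mouse 2. It was 0.40 and 0.31 in the df/+ bulbs, where the single-symbol genes stood at 0.02 and 0.01, and lay between -0.04 and 0.05 in all 12 +/+ samples. The 3 samples in which the receptor genes were highest were among those in which these probe sets were high. In the contrast across the brain, which chose the family, 40 of the 64 distinct profiles (62.5%) were called higher in dp/+ mice, where 2.33% of all probe sets were. Of the several-symbol probe sets with no receptor of the family, 248 of 1391 profiles (17.8%) were called higher. By the number of symbols listed, 4 of 22 profiles (18.2%) were called at 2 or 3 symbols, near the share outside the family, 13 of 17 at 4 to 9 and 23 of 25 at 10 or more, with medians of 0.19, 0.41 and 0.53 log2 units. Fitted with all probe sets, 11 of the 180 single-symbol genes (6.11%) were called. In the +/+ bulb, 5 of the family's 68 several-symbol probe sets were higher and 9 lower. Of all genes, 15.3% were higher and 21.2% lower. The higher sets lay at 0.58 to 0.81 log2 units, and all list V1 receptors. The lowest set, at -1.13 (adjusted p = 2.07e-06 over all probe sets), lists Vmn2r84 to Vmn2r89 among other symbols. A probe of such a set can hybridise to many genes, so these values name no gene.

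**Figure D5:**
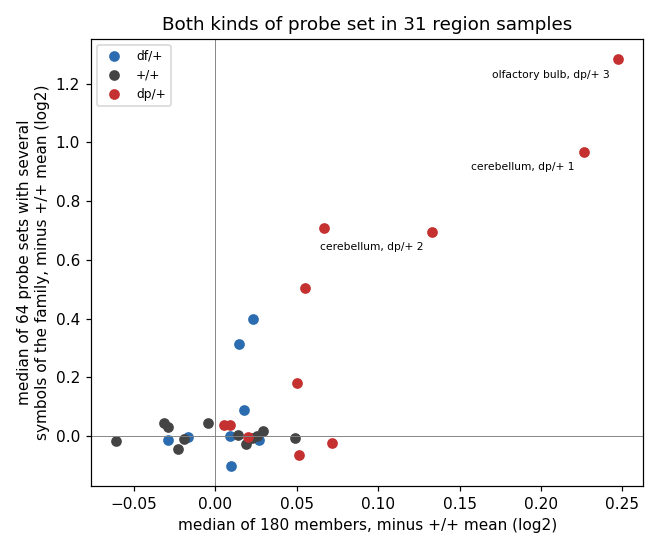
Median deviation from the +/+ mean of the region (log2) of 64 distinct probe sets with several symbols of the family (y axis) against that of the 180 single-symbol genes (x axis), with 1 point for each of 31 region samples, coloured by genotype. The dp/+ bulb of mouse 3 and cerebellum of mouse 1 lie at 1.28 and 0.97, and all +/+ samples lie within 0.05 of 0 on the y axis.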

How the data were processed

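Brain RNA of 8 mice was hybridised to Affymetrix arrays. Per the submitters' processing notes, signals were summarised by RMA in Affymetrix Expression Console; the deposited log2 values were used as they stand. The log base was read from the values, and the genome build and probe annotation release are not given in the sources used here. Nothing in the labels says that mice with the same number are paired: deviations of same-numbered mice had correlations of -0.38 to 0.17, so numbers were not used as pairs.

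Repeat arrays of a sample were averaged. Of 35556 probe sets 21789 list 1 symbol, 1621 several and 12146 none; the brightest single-symbol probe set stood for each of 19936 genes. Near-identical receptors can hybridise to each other's probes, and detection above background was not tested. The number of arrays limits precision.

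Tests used limma 3.58.1 with statmod 1.5.0 in R 4.3.3, with Benjamini-Hochberg adjustment over all genes and a threshold of 0.05. The brain value of a mouse was its mean deviation from the +/+ regional means. Fits within regions had the mouse as a random block, and those between regions of one genotype had it as a fixed block. The level course was a running median over 501 of 18729 genes outside the sensory receptor families, subtracted per sample. P-values across the brain measure the spread between these mice. Those between regions of one genotype measure how far the differences between regions vary among its mice. Those within regions measure the spread of region samples, with a correlation of 0.12 between samples of a mouse. The fits were tested on simulated data with noise independent between samples, so without the correlation of 0.12. How they behave where a few region samples shift together was not tested.

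Members and gene lists were chosen with earlier results of these data known. Genes were named by rule: all Taar genes, measured members of Vmn2r1 to Vmn2r7, up to 10 with the smallest p between +/+ regions, up to 8 per genotype contrast across the brain, 4 per region and 4 for differences between regions, the 3 highest and 3 lowest after level removal, and 4 per list. Scaling, prior, weights, left-out mice and a replicate block were tried as alternatives.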

Additional observations from a re-analysis of the deposited data

Results flagged for a closer look

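Probe sets that list several genes, with at least 1 vomeronasal or trace amine receptor among them, took no part in the comparisons between genes. Of their 64 distinct profiles, 40 were called higher in dp/+ mice than in +/+ mice across the brain and none lower, against 2.33% higher over all probe sets (limma, adjusted over all probe sets) and 17.8% (248 of 1391 profiles) over several-symbol probe sets with no receptor of the family. None was called in df/+ mice. Their median was 0.40 log2 units in dp/+ mice and 0.08 in df/+ mice.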

How the results depend on the processing

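Across the brain 13 receptor genes were called in dp/+ mice, all higher, beside 371 of all genes in either direction. After a further quantile normalisation these were 2 and 51, with arrays centred on their medians 7 and 187, with cyclic loess 3 and 72. They were 3 and 64 with the level course removed, and 43 and 2222 with array weights. With a robust prior that follows a trend they were 5 and 77. Within regions 21 receptor genes and 1483 of all genes were called in dp/+ mice. They became 12 and 880 with quantile normalisation, 11 and 777 with cyclic loess, and 47 and 5948 with array weights. In df/+ mice no receptor gene was called within a region as reported, beside 90 of all genes. It was 1 with the trended prior and 1 with array weights, beside 85 and 196 of all genes. The cause of these changes was not tested. With the replicate number as a block, 2 receptor genes and 31 genes in all were called across the brain in dp/+ mice, against 13 and 371 without it.

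Leaving out each mouse in turn gave 2 to 19 genes across the brain and 4 to 36 within a region in dp/+ mice, 0 and 0 to 1 in df/+ mice, 5 to 8 between +/+ regions, 5 to 8 in the +/+ bulb and 0 to 3 for a difference between regions. Across the brain the count was 2 on removal of +/+ mouse 2 or dp/+ mouse 2. It was 3 for +/+ mouse 3, 6 for dp/+ mouse 1 and 7 for dp/+ mouse 3. Over all genes 11, 32, 59, 120 and 139 were called in these fits, in that order of mice. Within regions it was 6, 4 and 5 without +/+ mice 1, 2 and 3, 12 without dp/+ mouse 2 and 36 without dp/+ mouse 3. In the same order 688, 113, 845, 904 and 1549 of all genes were called in these fits. Chosen after seeing the data, leaving out the bulb of dp/+ mouse 3, the cerebellum of dp/+ mouse 1, that of dp/+ mouse 2, or all 3 samples gave 0, 0, 8 and 0 receptor genes across the brain (4, 19, 113 and 0 of all genes), and 5 within regions without all 3.

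No direction reversed among 22 values of named genes. The bulb calls of Vmn1r206, Vmn1r208, Vmn2r1 and Vmn2r-ps11 held under all 13 alternatives run, and the dp/+ calls of Vmn2r-ps104 and Vmn1r193 under 21 of 24. The bulb call of Vmn2r-ps11 is against a mean that includes its high cerebellum. The dp/+ call of Vmn1r202 held under 17 of 24, those of Vmn1r208, Vmn1r82 and Vmn1r89 under 8, 7 and 7, and the bulb call of Vmn1r199 under 8 of 13. Keeping brighter genes only left no receptor gene and gave no value. Leaving out pseudogene symbols does not change the fit of a named gene, and the array's own symbols differ for only 2 probe sets. Averaging probe sets changes no value of a gene with a single one. Agreement under these alternatives was therefore largely fixed in advance. The dp/+ calls belong to the contrast that chose the genes, so how often they held is a description and supports nothing. Dim signals limit all of these values.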
